A study of Papio anubis with 28 samples.

Results

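Transforming growth factor beta (TGF-beta) ligands, bone morphogenetic proteins (BMPs), the activin subunit INHBA and the BMP antagonist GREM1 were followed through grafted and native urinary bladder of the olive baboon. The members were chosen by name, as 9 genes: TGFB1, TGFB2, TGFB3, INHBA, BMP2, BMP4, BMP5, BMP7 and GREM1. Of these, 8 had a row under their symbol among the 27533 genes of the count table, and all 8 were among the 17177 genes that passed the filter on low counts. BMP2 was not analysed here.

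RNA was sequenced in 28 libraries from 14 animals, each of which gave 1 library of native bladder and 1 of the graft in that bladder. Every animal is labelled WT; the labels give neither age nor the time since surgery. In the Entero arm (5 animals) bowel was grafted, an Ileum graft (enterocystoplasty), and both libraries of an animal carry that treatment label. In the SIS arm (5 animals) and the PRS arm (4 animals) the treatment label is MSC/CD34+ HSPC graft: a scaffold carrying primary bone marrow cells, mesenchymal stromal cells with CD34+ haematopoietic stem and progenitor cells. The native libraries of these arms come from animals with such a graft, so no group is bladder of an animal without surgery, and no group is ungrafted ileum. SIS is taken as small intestinal submucosa, a decellularised bowel matrix, and what PRS stands for is not given. About 50 mg of tissue was extracted per library, so each is a mixture of cell types.

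TGF-beta ligands are secreted in a latent form, are released by proteases or integrins, and signal through type I and type II receptors to SMAD2 and SMAD3. Activins, dimers of inhibin beta chains such as INHBA, use related receptors and the same SMADs. BMPs signal through SMAD1, SMAD5 and SMAD9, and secreted antagonists such as GREM1 bind BMPs outside the cell. In the bladder TGF-beta signalling is known for its part in wall fibrosis and smooth muscle development, and in the bowel GREM1 is known from the mesenchymal cells around the crypt base, where it keeps BMP signalling low.

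Total counts ran from 20975648 to 35669026 per library, and no batch is named in the labels. Levels are given as CPM, counts scaled to a common library total, with TMM factors (a trimmed mean of log ratios) in the library sizes. Ileum grafts matched their label by CDX2, a transcription factor of intestinal epithelium. It lay between 82.3 and 183 CPM in the ileum grafts and at or below 0.561 CPM in every group of bladder or scaffold tissue. CDX2 therefore cannot tell a scaffold graft from native bladder. UPK2, a urothelial plaque protein, lay between 71.8 and 1098 CPM in Entero native bladder and between 0 and 4.19 CPM in the ileum grafts. Other markers did not all follow the labels. OLFM4, used as an intestinal marker, ran from 39.3 to 847 CPM in the ileum grafts (mean 346). In PRS native bladder it ran from 0 to 1435 CPM (mean 360), and in PRS grafts from 0.759 to 1149.5 CPM (mean 298). The PRS means therefore do not describe each library. SLC5A1, used likewise, ran from 0 to 238 CPM in PRS grafts, against 174 to 2334 CPM in the ileum grafts. KRT20, used as a urothelial marker, averaged 1353 CPM in the ileum grafts and 7.76 CPM in Entero native bladder. Smooth muscle markers varied widely within groups, with summed levels from 2111 to 58169 CPM in the 4 native libraries of the PRS arm. The graft library of SIS animal 2 stood apart from the other SIS grafts in several members, and member results that rest on it are given with and without it.

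Levels can be compared between members only per length. In TPM, counts per gene length scaled to a common total, averaged over the 14 native libraries, TGFB1 was highest at 154 ± 49.7 (SD), and it exceeded each of the other 7 members in 14 of 14 libraries. TGFB3 followed at 35.6 ± 21.1, then BMP4 at 23.7, GREM1 at 20.4, TGFB2 at 15.2, BMP5 at 12.7, BMP7 at 7.91 and INHBA at 5.43. Neighbours in the middle of this order did not separate: TGFB3 exceeded BMP4 in 11 of 14 libraries, BMP4 exceeded GREM1 in 9 of 14 and GREM1 exceeded TGFB2 in 9 of 14. TGFB2 lay above BMP5 by its mean but exceeded it in 4 of 14 libraries only. The table's lengths for TGFB1, TGFB2, INHBA and GREM1 are multiples of 3, as for coding sequence alone, so gene models of unequal kind enter this order.

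Entero compared the ileum graft with the bladder it was sewn to. BMP5, a BMP ligand, was lower in the graft and GREM1 was higher, and these 2 of 8 members passed the threshold of 0.05 (edgeR's quasi-likelihood test, Benjamini-Hochberg adjusted over all 17177 genes). The same comparison called 15.0% of all genes (28.5% at an unadjusted p under 0.05, as for 4 members), 7.72% higher and 7.33% lower, so 1 rise and 1 fall among 8 are a share near or somewhat above that background. DESeq2 called the same 2 members, BMP5 (adjusted p = 0.0139) and GREM1 (adjusted p = 0.00561), and 20.2% of genes. The median log2 fold change of the 8 members was -0.90, against -0.03 over all genes tested.

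BMP5 stood at 44.6, 36.3, 33.9, 52.9 and 50.9 CPM in native bladder of Entero animals 1 to 5. In their ileum grafts it stood at 10.2, 12.2, 0.535, 12.1 and 21.9 CPM. The groups did not overlap, the graft was lower in 5 of 5 animals, and animal 3 had by far the lowest value. BMP5 fell by a log2 fold change of -1.94 (SE 0.64, edgeR adjusted p = 0.0400). The call was lost in 8 of 28 fits that each left out 1 library, all of them Entero libraries, with log2 fold changes from -2.02 to -1.63 in those fits.

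GREM1 stood at 11.7, 4.59, 1.74, 19.1 and 2.44 CPM in native bladder of Entero animals 1 to 5, and at 57.1, 36.8, 36.4, 107 and 9.73 CPM in their grafts. The groups overlapped, since the graft of animal 5 was below 2 native libraries, yet the graft was higher in 5 of 5 animals. GREM1 rose by 2.65 on the log2 scale (SE 0.89, edgeR adjusted p = 0.0443). This call was close to the threshold as well and was lost in 11 of 28 fits without 1 library, 3 of them fits that left out a SIS native library, and with no filter on low counts (adjusted p = 0.0518).

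BMP7, a BMP ligand known from epithelia and the developing kidney, stood at 18.8, 14.6, 21.7, 10.6 and 20.8 CPM in native bladder and at 7.14, 8.78, 3.21, 6.65 and 10.5 CPM in the ileum grafts of animals 1 to 5. Here too the highest graft lay under the lowest native library, by a small margin. The log2 fold change was -1.25 (SE 0.47, edgeR adjusted p = 0.0765), which did not pass, and a fit of the Entero libraries alone gave an adjusted p of 0.0447. BMP5 and BMP7 were the 2 of 8 members whose groups did not overlap and were lower in the graft, against 5.86% of all genes.

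Among the TGF-beta ligands, TGFB1 stood at 87.2, 161, 185, 107 and 139 CPM in Entero native bladder and at 43.5, 119, 88.4, 95.3 and 45.7 CPM in the grafts. Each graft was below the native library of its animal although the groups overlapped, and the log2 fold change was -0.79 (SE 0.37, edgeR adjusted p = 0.151). TGFB2 gave -1.70 (adjusted p = 0.189) and TGFB3 -1.01 (adjusted p = 0.314), and both ran high in the native library of animal 4, at 30.3 and 75.5 CPM. Without that library TGFB2 gave -0.83 and TGFB3 -0.25, and without ileum graft 2 TGFB3 gave -1.62. INHBA differed by 0.74 (adjusted p = 0.665) and BMP4 by -0.42 (adjusted p = 0.456). Without the native library of animal 4 these were 1.54 and -0.13, and INHBA was 0.47 without that of animal 2. For these 5 members no difference passed the test, and the 95% interval of TGFB2, from -3.45 to 0.05, shows how little 5 animals fix it.

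Within animals the same directions appear on log2 CPM. TGFB1, BMP5 and BMP7 were lower in the graft of every Entero animal, where 12.9% of all genes were, and GREM1 was higher in every animal, where 10.3% of all genes were. Mean changes were -0.86 for TGFB1, -2.57 for BMP5, -1.30 for BMP7 and 2.81 for GREM1, each with an exact two-sided sign-flip p of 0.0625 (n = 5), the smallest that 5 animals can give, and 0.286 after adjustment over 32 tests.

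**Figure D1:**
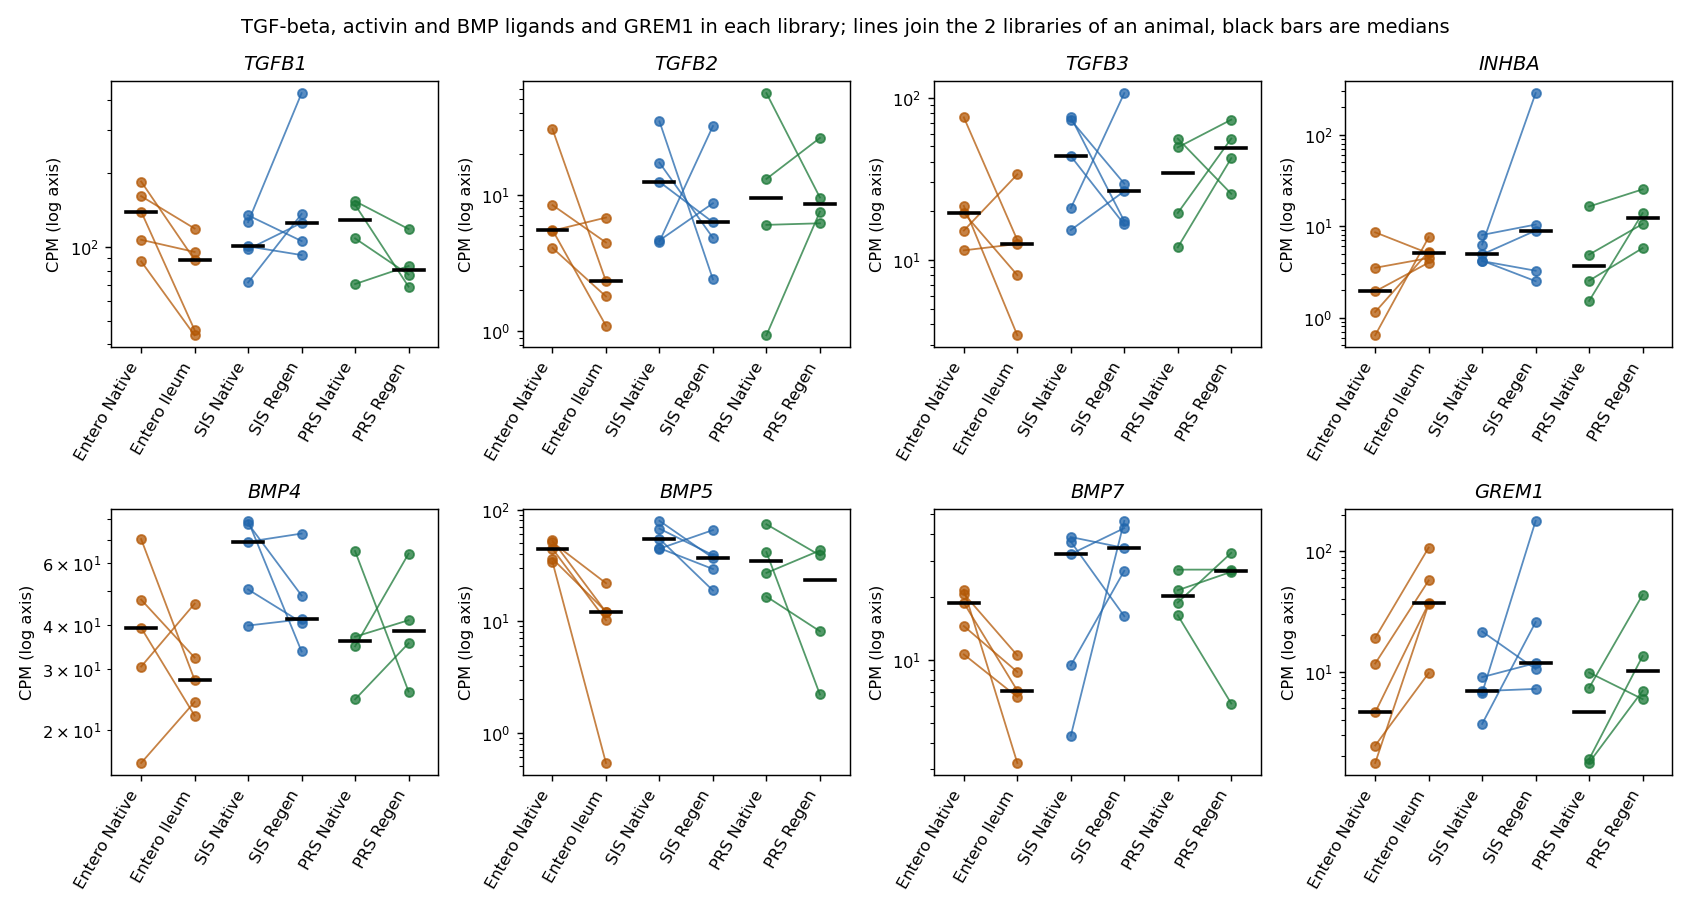
CPM of each of the 8 members in every library, on a log axis, by group. Lines join the libraries of an animal and black bars are group medians. GREM1 is higher in the graft of all 5 Entero animals while BMP5 and BMP7 are lower, and the single SIS graft at 425 CPM of TGFB1 and 287 CPM of INHBA sits far above the rest of its group.

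The cell makeup of the ileum graft differed from bladder along with these members. Of 8 tested urothelial markers 7 were lower and 1 was higher in the graft, and of 8 intestinal epithelial markers 6 were higher. Of 7 fibroblast stroma markers 3 were lower, and their summed level ran from 1140 to 6888 CPM in the grafts against 3859 to 19817 CPM in native bladder. None of 6 smooth muscle markers passed. The share of mitochondrial transcripts was 11.8% to 30.9% in the ileum grafts and 6.04% to 9.03% in their native libraries. The part of these differences in the changes of BMP5 and GREM1 was not tested, and in bulk tissue fewer cells of a type and less RNA per cell cannot be told apart.

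Scaffold grafts were compared with native bladder in the same way. No member passed in the SIS arm or the PRS arm, and none passed in the mean of both arms. This is the background of the comparison too, since edgeR called 0% of all genes in each; at an unadjusted p under 0.05 stood 2, 0 and 2 members against 4.86%, 3.62% and 4.98% of genes. DESeq2 called no member and 70, 32 and 66 genes (0.389%, 0.186% and 0.375%), but it gave no p for INHBA.

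In the SIS arm INHBA stood at 4.15, 6.30, 4.20, 8.02 and 4.91 CPM in native bladder and at 3.26, 287, 2.50, 10.4 and 8.95 CPM in the regenerated tissue. Apart from animal 2 the grafts lay on both sides of the native range. The fitted log2 fold change was 3.50 (SE 1.01, edgeR adjusted p = 0.571), and 0.19 without the graft of animal 2. GREM1 was also highest in that graft, with native values of 6.90, 6.66, 21.5, 3.68 and 9.0 CPM and graft values of 7.19, 179, 10.5, 25.8 and 11.8 CPM. The other 4 grafts lay inside the native range or above it, and the graft was higher in 4 of 5 animals. Its log2 fold change of 2.29 (edgeR adjusted p = 0.869) became 0.53 without that library. TGFB1 went from 0.74 to 0.12.

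In the PRS arm INHBA stood at 16.4, 4.89, 1.52 and 2.53 CPM in native bladder and at 25.3, 10.6, 13.9 and 5.76 CPM in the regenerated tissue of animals 1 to 4. It was higher in the graft of 4 of 4 animals, where 5.52% of all genes were, though the groups overlapped and the fitted log2 fold change of 1.13 (SE 1.04, edgeR adjusted p = 1) did not pass and was 0.66 without graft 1 and 2.22 without native library 1. GREM1 went from 7.35, 1.88, 1.76 and 9.82 CPM to 43.4, 13.5, 6.94 and 5.92 CPM, higher in 3 of 4 animals, with a log2 fold change of 1.75 (edgeR adjusted p = 1) that became 0.74 without graft 1. BMP5 in the PRS grafts covered a wide range, 39.0, 43.1, 2.20 and 8.13 CPM against 73.9, 27.1, 41.6 and 16.6 CPM in native bladder.

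Over the 9 scaffold animals together, the mean within-animal change on log2 CPM was -0.996 for BMP5 (lower in 7), 1.498 for GREM1 (higher in 7) and 1.296 for INHBA (higher in 7). Exact two-sided sign-flip p-values were 0.0391, 0.0508 and 0.0391 (n = 9), and each became 0.286 after adjustment over 32 tests. Without SIS animal 2 the change of INHBA was 0.77 (exact sign-flip p = 0.0781), and without PRS animal 3 that of BMP5 was -0.597 (exact sign-flip p = 0.0781). For both genes the unadjusted p was over 0.05 in 7 of 9 sets that each left out 1 animal. No call therefore stands for a scaffold graft, and the intervals in the plot of graft against native bladder are wide.

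**Figure D2:**
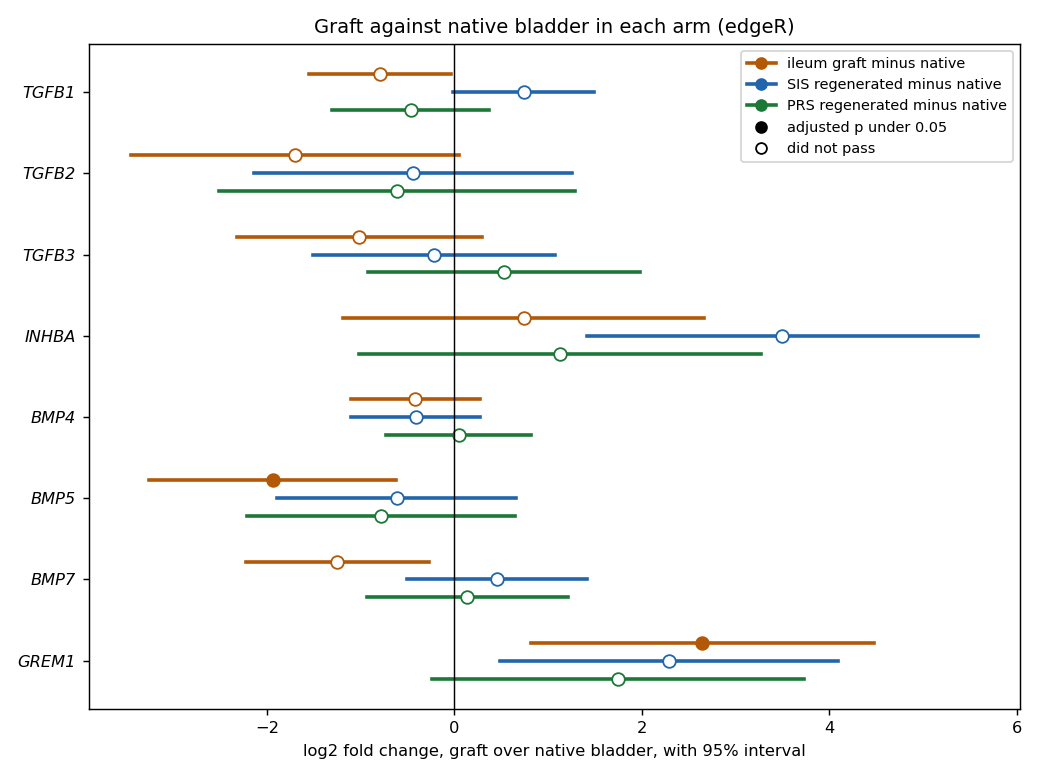
Log2 fold change of graft over native bladder for each member and arm, with its 95% interval from edgeR. Filled points passed an adjusted p of 0.05: BMP5 and GREM1 in the Entero arm. The GREM1 points lie at 2.65, 2.29 and 1.75, of which the SIS and PRS values did not pass and became 0.53 and 0.74 without 1 graft library each.

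Whether the change differed between arms was tested directly. No member passed for SIS against Entero, where 6.56% of all genes did, or for PRS against Entero, where 3.47% did. At an unadjusted p under 0.05 stood 3 members for SIS (TGFB1, BMP7 and INHBA) and 0 for PRS, against 19.5% and 16.0% of genes. DESeq2 called no member and 10.5% and 6.71% of genes. The smallest p among members belonged to TGFB1, whose change was 1.53 higher on the log2 scale in SIS than in Entero (SE 0.52, edgeR adjusted p = 0.0781), and 0.91 higher (adjusted p = 0.204) without SIS graft 2. For BMP7 the differences from Entero were 1.70 in SIS (adjusted p = 0.136) and 1.39 in PRS (adjusted p = 0.335). INHBA differed by 2.76 in SIS (SE 1.33, edgeR adjusted p = 0.254), a value that changed sign in at least 1 setting. Its change within the SIS arm was 3.50 with SIS graft 2 and 0.19 without it. The differences from Entero share the Entero libraries. PRS and SIS did not differ in the change of any member by this test, in which 0% of all genes passed. At an unadjusted p under 0.05 stood 1 member, TGFB1, against 3.98% of genes, and this value too rests on SIS graft 2: the PRS minus SIS difference was -1.21 with that library and -0.58 (SE 0.43) without it.

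Grafts were also set against each other, which compares regenerated bladder with bowel in the bladder. BMP7, INHBA and TGFB1 were higher in SIS grafts than in ileum grafts, 3 of 8 members, where 10.9% of all genes were higher and 21.1% passed in either direction. BMP7 was also higher in PRS grafts than in ileum grafts, as 1 of 8 members, where 7.21% of all genes were higher. At an unadjusted p under 0.05 stood 5 and 3 members, against 34.3% and 27.9% of genes. BMP5 in SIS over ileum missed the threshold narrowly (1.74, edgeR adjusted p = 0.0522), as did TGFB3 in PRS over ileum less narrowly (1.80, adjusted p = 0.0748). DESeq2 called both (adjusted p = 0.0269 and 0.0427), where it called 25.2% and 20.1% of genes. Both comparisons use the same ileum libraries.

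BMP7 stood at 34.5, 16.2, 42.9, 46.5 and 26.8 CPM in the SIS grafts and at 26.5, 6.19, 32.6 and 27.1 CPM in the PRS grafts, against 3.21 to 10.5 CPM in ileum. All SIS grafts lay above all ileum grafts, as for 6.24% of genes, while 1 PRS graft lay within the ileum range. The log2 fold changes were 2.20 (SE 0.49, edgeR adjusted p = 0.00211) for SIS and 1.67 (SE 0.50, adjusted p = 0.0255) for PRS. In the PRS comparison the call was lost in 4 of 28 fits without 1 library, namely ileum 3 and PRS grafts 1, 3 and 4, and also in a fit of the compared groups alone (adjusted p = 0.0816). Urothelial markers were higher than in ileum along with BMP7, 7 of 8 in SIS and 7 of 8 in PRS with 1 lower in each, at median log2 fold changes of 7.94 and 6.0, and their part in the BMP7 difference was not tested.

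INHBA in SIS over ileum gave a log2 fold change of 3.56 (SE 1.02, edgeR adjusted p = 0.0141), and TGFB1 gave 1.17 (SE 0.37, adjusted p = 0.0244). Both rest on SIS animal 2: without its graft the values were 0.25 (adjusted p = 0.831) and 0.55 (adjusted p = 0.198), and BMP7 was then the single member called, at 2.37 (adjusted p = 0.00139). TGFB1 also missed the threshold without ileum graft 1 or 5 (adjusted p = 0.0546 and 0.0697). GREM1 did not differ detectably between SIS and ileum grafts (-0.08, 95% interval -1.80 to 1.64, adjusted p = 0.959), and without SIS graft 2 the difference was -1.84 (adjusted p = 0.101). For PRS over ileum it was -1.50 (adjusted p = 0.300), and -2.49 without PRS graft 1. PRS and SIS grafts showed no called member among 0% of all genes, with 2 members at an unadjusted p under 0.05 against 4.44% of genes. For PRS over SIS, TGFB1 gave -1.03, and -0.40 without SIS graft 2. INHBA gave -2.16, a value that changed sign in at least 1 setting.

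The library of SIS graft 2 carried several members at their highest level in the series: TGFB1 at 425 CPM, TGFB3 at 107 CPM, GREM1 at 179 CPM and INHBA at 287 CPM, with TGFB2 at 31.9 CPM. BMP7 was lowest of its group there, at 16.2 CPM, and BMP4 at 40.6 CPM was inside the range of the other SIS grafts. Other genes, picked after their values were seen, were high in the same library. Being picked in this way, they are a description and no separate result. The share of all genes that peaked there was not counted. FST, an antagonist that binds activin, stood at 357 CPM against 11.6 to 21.6 CPM in the other 4 SIS grafts. The cytokine IL6 stood at 599 CPM against 0.408 to 5.49 CPM. Summed fibroblast stroma markers were 35604 CPM there and 6828 to 14937 CPM in the others, and summed smooth muscle markers were 36118 CPM against 6157 to 23036 CPM, the highest of the group for both lists. Summed urothelial markers were 271 CPM against 2331 to 5346 CPM, and summed leukocyte markers were 95.1 CPM against 54.7 to 101 CPM. The part of these markers in the member values was not tested.

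Other genes of the pathway were taken from 7 lists by role, 70 distinct tested genes. In Entero none rose and 9 fell, where 7.72% of all genes rose and 7.33% fell, and the median log2 fold change was -0.44 against -0.03 for all genes. The 9 became 5 without the native library of Entero animal 5, and likewise without ileum graft 4 or 5. In the SIS and PRS arms none of the 70 passed, with 6 and 2 at an unadjusted p under 0.05, where 4.86% and 3.62% of all genes stood. In SIS over ileum grafts 22 were higher and 0 lower, where 10.9% of all genes were higher. That count fell to 12 without SIS graft 2 and to 13 without ileum graft 4 or 5. In PRS over ileum 6 were higher, where 7.21% of all genes were, and 1, the inhibitory SMAD7, was lower. The 6 became 11 without ileum graft 1, 10 without the native library of PRS animal 4 and 0 in a fit of the compared groups alone.

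Among 14 receptors, TGFBR3 (betaglycan, which presents TGFB2) and ENG (endoglin of endothelium) fell in the ileum graft. TGFBR3 stood at 127, 62.7, 96.0, 155 and 158 CPM in native bladder and at 52.2, 10.5, 38.2, 20.0 and 22.4 CPM in the grafts, and fell by 2.06 on the log2 scale (edgeR adjusted p = 0.0101). ENG fell by 0.98 (adjusted p = 0.0383), while the type II receptor ACVR2B gave -1.07 (adjusted p = 0.120). None of 5 endothelial markers passed in this comparison.

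Of 13 other ligands GDF6, a BMP family ligand, passed, from 1.19 to 3.18 CPM in native bladder and 0 to 0.523 CPM in the grafts, a fall of 4.09 on the log2 scale (edgeR adjusted p = 0.00936) at a low level. BMP6 (-1.68, adjusted p = 0.0928) and GDF11 (-1.21, adjusted p = 0.0624) did not pass. Of 12 other antagonists BAMBI, a decoy receptor, and CHRDL1, a secreted BMP antagonist, fell. BAMBI stood at 26.5, 26.8, 27.2, 45.5 and 45.0 CPM in native bladder and at 2.41, 3.51, 5.21, 5.13 and 5.24 CPM in the grafts. Its groups were far apart, and it fell by 2.99 on the log2 scale (edgeR adjusted p = 0.000573). CHRDL1 fell by 2.17 (adjusted p = 0.0475), a call lost in 15 of 28 fits without 1 library. SOSTDC1 gave -1.68 (adjusted p = 0.260).

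Of 10 genes of latency and activation LTBP4, a matrix protein that holds latent TGF-beta, fell by 1.74 (edgeR adjusted p = 0.00948), and ITGB6, an epithelial integrin chain that releases it, by 2.23 (adjusted p = 0.0393). LTBP3 gave -0.94 (adjusted p = 0.133). Of 8 SMADs SMAD9 fell by 1.92 (adjusted p = 0.0297), and SMAD3 (-0.83, adjusted p = 0.0536) and SMAD5 (-0.81, adjusted p = 0.120) did not pass. Of 9 BMP targets 3 fell, namely BAMBI, SMAD9 and HEY1 (-1.41, adjusted p = 0.0105). A negative log2 fold change was found in 8 of 9, and in 8859 of all 17177 genes. The same sign was found for 9 of 9 BMP targets in the SIS arm, where 8098 of all genes had it. In the PRS arm it was 5 of 9, where 8183 of all genes had it. None of 9 TGF-beta targets passed in the ileum graft: COL1A1 gave -0.93 (adjusted p = 0.470), TGFBI -0.62 (adjusted p = 0.379) and PMEPA1 0.82 (adjusted p = 0.395). TGFBR3, GDF6, BAMBI, LTBP4 and HEY1 passed in all 28 fits without 1 library, and ITGB6, ENG and SMAD9 lost the call in 7, 6 and 5 of them.

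In SIS over ileum grafts the genes that were higher included TGFBR3 (2.00, edgeR adjusted p = 0.0101), BAMBI (3.56, adjusted p = 9.14e-05), LTBP4 (1.95, adjusted p = 0.00338) and GDF6 (4.33, adjusted p = 0.00534). These values include SIS graft 2, and which of these genes passed without it is not given here. FST (4.31, adjusted p = 0.00417) passed with graft 2 in the group, and without it the genes called higher went from 4 to 1 among TGF-beta targets, from 5 to 3 among receptors, from 2 to 1 among other ligands and among other antagonists, from 4 to 3 in latency and activation, and from 3 to 2 among SMADs and among BMP targets. In PRS over ileum BAMBI (2.25, adjusted p = 0.00892), TGFBR3 (2.16, adjusted p = 0.0109) and GDF6 (4.54, adjusted p = 0.00647) were higher. Fibroblast stroma markers were higher than in ileum along with them, 6 of 7 in SIS and 3 of 7 in PRS, and their part was not tested. The SIS count of these markers includes graft 2, whose summed level of them was the highest of its group.

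**Figure D3:**
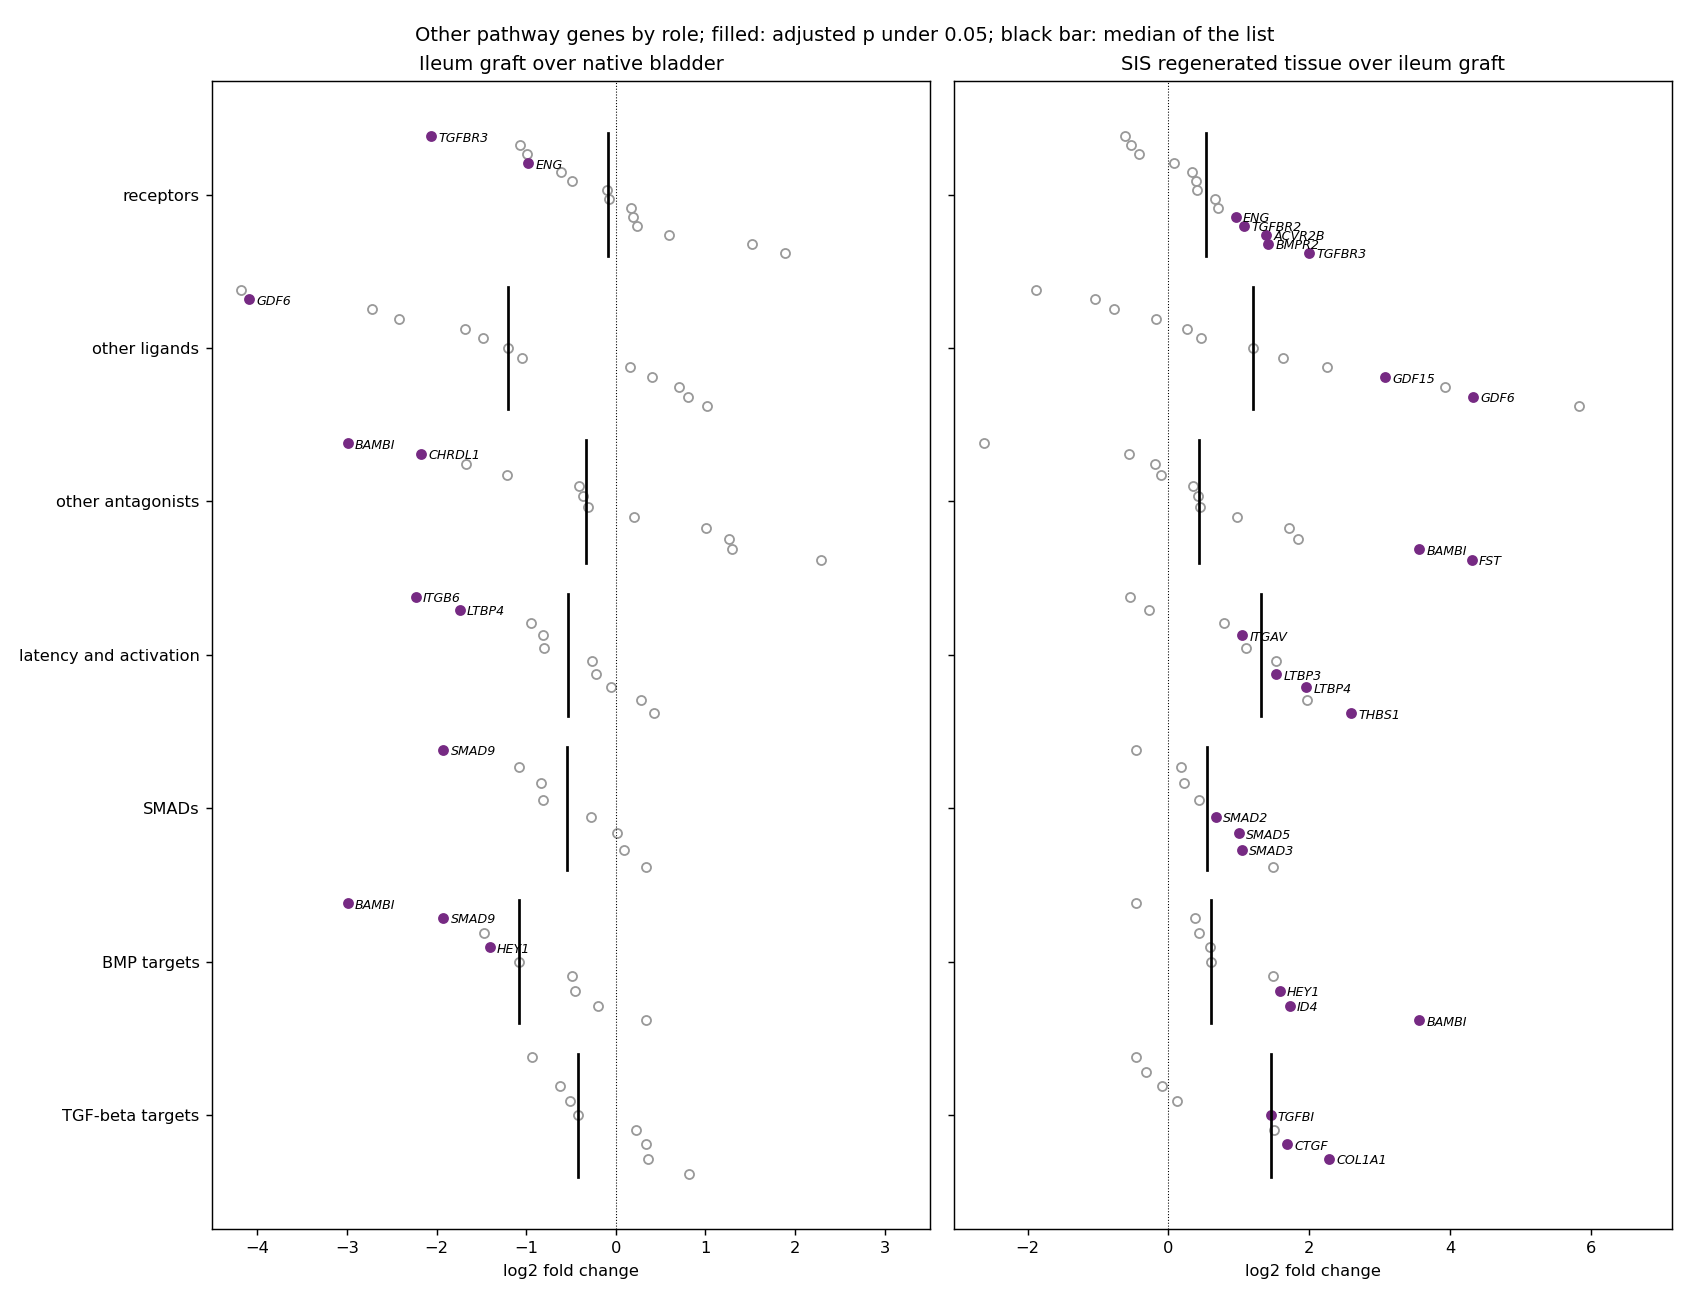
Log2 fold change of tested pathway genes other than the members, by role, for ileum graft over native bladder (left) and SIS regenerated tissue over ileum graft (right). Filled named points passed an adjusted p of 0.05 and black bars are list medians; a gene in 2 lists is drawn in both. Called genes lie left of 0 in the left panel and right of 0 in the right panel, and both panels use the ileum libraries.

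Native bladder of the 3 arms showed no called member in any pair of arms, where edgeR called 0% of all genes; at an unadjusted p under 0.05 stood 0 members in each pair, against 4.14% (SIS and Entero), 2.15% (PRS and Entero) and 7.02% (PRS and SIS) of genes, and DESeq2 found 35 to 117 genes. Members nevertheless varied widely between native libraries. TGFB2 ran from 0.935 to 55.7 CPM and TGFB3 from 11.4 to 76.0 CPM over the 14 libraries. Their levels were set against the mean log2 CPM of 6 smooth muscle and 8 urothelial markers, 16 relations in all. The share of all genes that pass with these means was not counted, so no relation is shown to be particular to the members.

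TGFB3 and TGFB2 tended to be higher in the libraries with more smooth muscle transcripts. Over 14 native libraries TGFB3 gave Pearson's r = 0.93 (permutation p = 2e-05, adjusted 0.00032) and rho = 0.85 (p = 0.00035), and TGFB2 r = 0.88 (permutation p = 5e-05, adjusted 0.0004) and rho = 0.78 (p = 0.00142). Without the 2 libraries farthest from the median r was 0.92 and 0.88, and with arm means removed both still passed (adjusted permutation p = 0.00496 and 0.00832). A cut chosen after the values were seen splits the libraries in 2 sets: 5 had marker means of 12.0 to 12.4 and 9 had means of 7.42 to 10.9. TGFB3 stood at 49.3 to 76.0 CPM in the 5 and at 11.4 to 43.6 CPM in the 9, without overlap, while TGFB2 overlapped, at 12.4 to 55.7 CPM in the 5 and 0.935 to 17.2 CPM in the 9. The split uses the same marker mean as the relation, so it describes the relation and adds no support to it. The share of all genes without overlap in this split was not counted. Within the 9, a subset chosen after the values were seen, r was 0.69 for TGFB3 (exact permutation p = 0.0514, adjusted 0.164) and 0.87 for TGFB2 (exact permutation p = 0.00948, adjusted 0.0506), and without the 2 farthest of the 9 they were 0.08 and 0.01. A graded relation within the less muscular libraries was therefore not shown for either gene.

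INHBA (r = 0.67, rho = 0.74, adjusted permutation p = 0.0345) and BMP5 (r = 0.63, rho = 0.64, adjusted permutation p = 0.0359) also passed with the smooth muscle mean over 14 libraries. With arm means removed neither did (adjusted permutation p = 0.0543 and 0.143), and without the 2 farthest libraries r was 0.71 and 0.40. Within the 9 libraries INHBA gave r = 0.26 (adjusted exact permutation p = 0.688). BMP5 gave r = 0.95 there (adjusted exact permutation p = 0.00832), which became 0.63 without the 2 farthest of the 9. As the 9 were picked after the values were seen, these p-values are a description and BMP5 is not counted as passing by them. TGFB1 (r = -0.57), BMP7 (r = -0.58) and BMP4 (r = 0.58) did not pass by r (adjusted permutation p = 0.0634, 0.0592 and 0.0592). BMP4 did pass by rho (0.66, adjusted permutation p = 0.0407), and BMP7 with arm means removed (r = -0.60, adjusted permutation p = 0.0313). GREM1 gave r = 0.11 (adjusted permutation p = 0.708).

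BMP7 went with urothelial transcripts. Its r with the urothelial mean was 0.79 over 14 libraries (permutation p = 0.00104, adjusted 0.00555), rho was 0.70 (p = 0.00675), and r was 0.53 without the 2 farthest libraries. With arm means removed the adjusted permutation p was 0.0333. TGFB3 gave r = -0.64 with the urothelial mean (adjusted permutation p = 0.0359), which became -0.38 without the 2 farthest libraries and did not pass with arm means removed (adjusted permutation p = 0.0805). The remaining 6 members did not pass with this list.

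**Figure D4:**
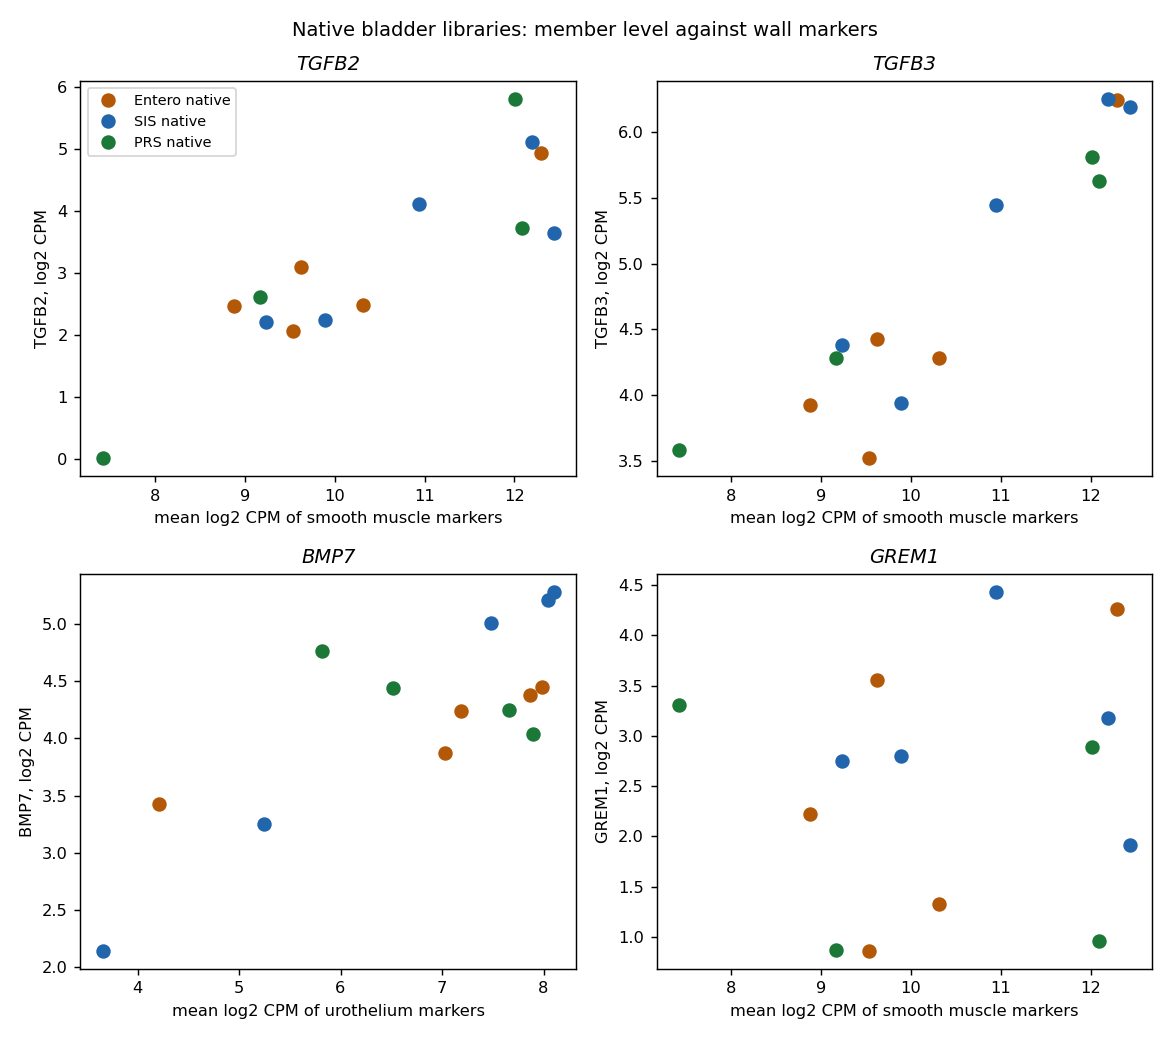
Log2 CPM of TGFB2, TGFB3 and GREM1 against the mean log2 CPM of smooth muscle markers, and of BMP7 against that of urothelial markers, 1 point per native library and coloured by arm. In the TGFB3 panel 5 libraries at marker means of 12.0 to 12.4 form a cluster at the upper right, and GREM1 shows no slope (r = 0.11).

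Across all 28 libraries the genes with the pattern most like each member, by Pearson's r of log2 CPM, are a description in which group differences, tissue makeup and shared depth all enter. For TGFB3 they were MGP (0.90), ELN (0.89) and TIMP1 (0.89), the first a matrix protein that limits calcification and the second elastin. For BMP7 they were led by MPZL2, FOXA1 and EDARADD at 0.89 to 0.92. For TGFB1 the highest was SH3BGRL3 (0.79) and for TGFB2 LAMC1 (0.86), a laminin chain. For BMP4 it was CERS1 (0.69). For BMP5 it was TMA16 (0.85). GREM1 was nearest to the matrix protein TNC (0.81) and INHBA to TNFRSF11B (0.79), a decoy receptor of the TNF family. SIS graft 2 enters each of these values.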

How the data were processed

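The authors deposited read counts per gene, not normalised, in 1 table. The tools named in the submitters' processing notes are featureCounts 1.5.0-p3, HISAT2 2.0.5 and StringTie 1.3.3b. For build, annotation and strand setting, which the labels leave out, nothing is assumed: coordinates and sequences are not printed, and antisense reads may be mixed in. The table's gene length gave TPM.

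The test was edgeR 4.0.16 (R 4.3.3) with filterByExpr at a minimum count of 10, TMM scaling, and 1 quasi-likelihood model of all 28 libraries with the 6 groups. P-values were adjusted by Benjamini and Hochberg over 17177 genes, with a threshold of 0.05. The SE was derived from the fold change and its F value. Log2 CPM used a prior count of 2. Within-animal changes were tested by exact sign flips, and native relations by 100000 permutations.

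The animal codes in the labels pair native and graft libraries. The deviations of an animal's libraries from their group means correlated at -0.19 to 0.61 (median 0.0997, above 0.1 in 7 of 14 animals), and a block on animals was 1 of the alternatives, beside DESeq2 1.42.0, other scalings, no filter, the compared groups alone and each library left out. The members and gene lists were chosen with earlier results of these data known. All 9 members were to be named, with up to 3 tested genes of smallest Entero p from each list, any that passed in a scaffold arm, and the 3 nearest genes. Of the pathway genes, 1 is counted in its list but not reported or drawn here. The relation with smooth muscle in 9 of 14 native libraries was added after seeing the data. Its p-values were adjusted together with those of the urothelial relations over all 14. Animals are separate, with 4 or 5 a group, and at the stated depth that number limits the precision.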

Additional observations from a re-analysis of the deposited data

Results flagged for a closer look

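In each of 48 sets, a member in a group, the highest and lowest libraries were examined for a gap to the next library that was large against the whole range. With values spread as a normal curve, chance flags about 1 in 20 groups. CPM need not follow that curve and sets that share a library are not independent, so this rate is no benchmark here. Such a value was held by 8 sets, the highest of its group each time. The graft library of SIS animal 2 gave 5 of them. There TGFB1 was 425 CPM, with the next SIS graft at 136 CPM, TGFB2 was 31.9 CPM (next 8.68), TGFB3 was 107 CPM (next 29.5), GREM1 was 179 CPM (next 25.8) and INHBA was 287 CPM (next 10.4). The native library of Entero animal 4 gave TGFB2 at 30.3 CPM (next 8.42) and TGFB3 at 75.5 CPM (next 21.5), and its smooth muscle mean was among the 5 highest of the native libraries. The graft of PRS animal 2 gave TGFB2 at 26.1 CPM, with the next PRS graft at 9.57 CPM.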

How the results depend on the processing

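The count of members called in Entero was 2, ranged from 0 to 3 over fits without 1 library, and was 1 with no filter on low counts. BMP5 lost its call in a fit of the groups compared alone (adjusted p = 0.0624). In SIS over ileum the count was 3, ranged from 1 to 4 without 1 library, and was 1 with the compared groups alone. In PRS over ileum it was 1, ranged from 0 to 2, and was 0 with the compared groups alone and 2 with DESeq2. No member was called in any setting in the scaffold, difference, PRS over SIS and native comparisons. Over all genes, the block on animals gave 675 instead of 1127 calls for SIS against Entero and 240 instead of 596 for PRS against Entero, and DESeq2 gave 1767 and 1182. The fits of the groups compared gave 2326 instead of 3627 genes for SIS over ileum and 1040 instead of 2399 for PRS over ileum. DESeq2 called 18 to 117 genes in the comparisons where edgeR called 0, and gave no p for INHBA.

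With the animal as a replicate block (the pairing), BMP7 in the PRS arm turned to -0.061 and TGFB2 in the PRS arm to 0.40, neither passing, and the block changed no member's call. Of 104 member values over all comparisons, 36 changed sign in at least 1 setting. None of the 6 called values did, nor any value in Entero, and the cause was not tested. They included 12 of 24 native and 10 of 24 difference values, of up to 2.76 in size, so uncalled directions there are not firm. Over fits without 1 library, uncalled values crossed 0 for TGFB3 (-1.03 to 0.042) and TGFB2 (-1.40 to 0.16) in SIS, BMP4 (-0.24 to 0.38), BMP7 (-0.074 to 0.46) and TGFB2 (-1.29 to 0.89) in PRS, GREM1 in SIS over ileum (-1.84 to 0.42), TGFB1 in PRS over ileum (-0.025 to 0.35) and COL1A1 in Entero (-2.52 to 0.026). BMP7 with smooth muscle turned to r = 0.18 in the 9 libraries of the added subset. With 4 or 5 animals a group, an uncalled value does not show that there was no difference. Where an interval is printed, differences inside it remain compatible with the data.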
